A study of Arabidopsis thaliana with 12 samples.

Results

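Seedlings of Arabidopsis thaliana given 10 µM 3'-butyl ABA for 6 h were compared with seedlings given the DMSO vehicle. 3'-butyl ABA is a derivative of the plant hormone abscisic acid (ABA) whose name places a butyl group at the 3' position. The comparison takes all 3 libraries of each of these groups, 6 of the 12 libraries of the series, and the 19634 of 27655 genes whose mean over the 6 libraries was at least 1 TPM (a transcript's share of its library, scaled for gene length). Both groups were wild-type Col-0. In each well of a 96-well plate, 6 to 8 seeds were sown on 1/2 MS agar with 1.5% sucrose, so a sample pools several whole seedlings. They grew at 22 °C to an age given as 8 days in the sample labels and as 7 days in the series text, and were then incubated under continuous light in liquid 1/2 MS with sucrose and 10 µM compound, or with DMSO alone in the control. Poly(A) RNA was made into libraries that keep the strand and read from both ends, 100 bases each, on an Illumina HiSeq.

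As background, ABA accumulates in plants short of water and in maturing seeds. It is bound by the PYR/PYL receptors, and the complex inhibits clade A PP2C phosphatases, which otherwise hold SnRK2 kinases inactive. Released SnRK2 kinases phosphorylate bZIP factors of the ABF family, which bind promoters at the ABA-responsive element, a sequence built on the core ACGTG. In seedlings the hormone is known for inducing protective proteins, closing stomata and slowing growth.

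The 6 libraries held 9827000 to 12443000 reads in genes, recovered from the steps in the TPM values. Nothing in the labels says that replicates came from separate cultures, so p-values measure only the spread between these samples, which may be technical. DMSO replicate 1 stood apart. Its Pearson correlation with both other DMSO libraries was 0.979, against 0.991 between those, and it lay at 34.0 on the second principal component, which held 7.69% of the variance, against -16.1 and -11.0 for the other DMSO libraries. Root markers were high in it: the 10 endodermis markers summed to 182 TPM there and to 76.4 and 77.9 TPM in DMSO replicates 2 and 3, and the 8 root hair markers to 255 TPM against 104 and 89.8 TPM. The first component held 84.5% of the variance and separated the groups. Values without DMSO replicate 1 are given beside the counts and calls described below that changed most without it. In whole seedlings, fewer cells of a type and less RNA per cell cannot be told apart.

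The response was broad. At a Benjamini-Hochberg adjusted p of 0.05 in limma, on log2(TPM + 1), 9841 genes differed between the groups, which is 50.1% of those tested. Of these, 4744 rose (24.2%) and 5097 fell (26%). Counts of list members given below are to be read beside these shares of all genes tested. Large changes went mostly upward: 1528 genes rose by at least 2-fold (7.78%) and 706 fell by at least 2-fold (3.6%). Without adjustment 11011 genes (56.1%) had a p under 0.05. In 11859 genes (60.4%) the 3 and 3 libraries did not overlap. The median change over all genes tested was -0.0039 on the log2 scale, and a gene's 95% confidence interval reached, at the median, 0.257 to either side. All fold changes here are on the log2(TPM + 1) scale, so the change of a gene with low TPM appears smaller than it is. Most are followed by their standard error after ±, with n = 3 and 3. The word "rose" or "fell" is used only of genes that passed this test.

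**Figure D1:**
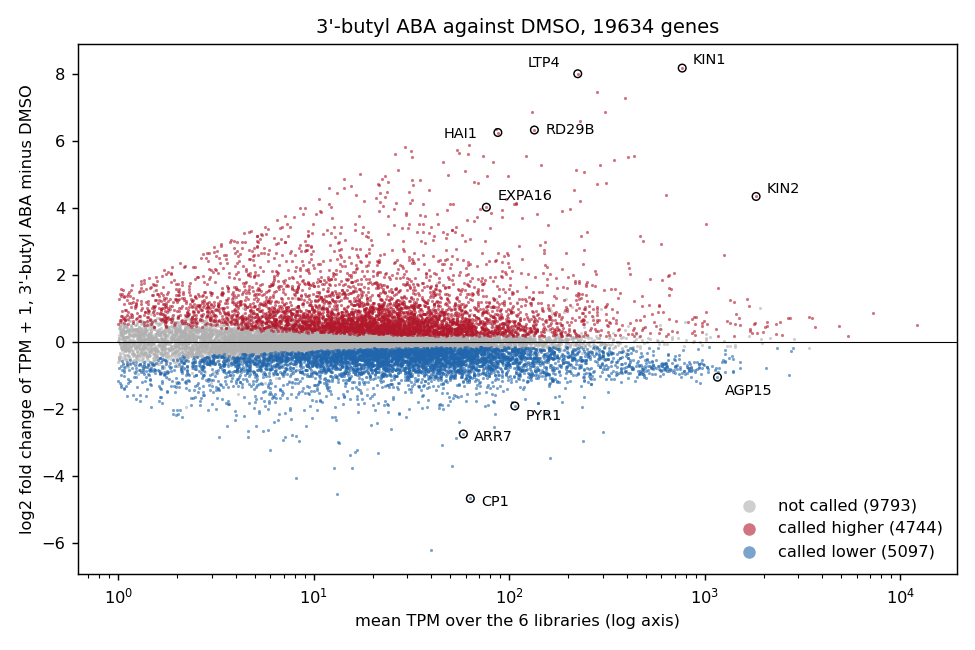
Log2 fold change of each gene tested (3'-butyl ABA against DMSO, vertical axis) against its mean TPM over the 6 libraries (horizontal axis, log scale). Points are genes and coloured points passed the test. The points above 1 are more numerous (1528 called) than those below -1 (706 called), and the largest increases reach 8.17 for KIN1.

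The receptor genes mostly fell. The PYR/PYL family has 14 members, of which 9 were measured above the filter: 7 fell, 1 rose and 1 was not called, with a median of -1.27. PYR1, one of the receptors that dimerise when free of ABA, had 179, 154 and 175 TPM in the 3 DMSO libraries and 44.6, 41.7 and 45.6 TPM in the 3 libraries with 3'-butyl ABA, a change of -1.92 ± 0.08. PYL4, the receptor gene with the highest TPM in DMSO, went from 242, 247 and 265 to 56.4, 53.3 and 61.8 TPM (-2.12 ± 0.07). PYL6 had the largest decrease in the family, from 29.8, 31.5 and 41.2 to 5.64, 4.59 and 5.53 TPM (-2.48 ± 0.14). In these 3 genes each library with the compound was well below each DMSO library. PYL5 fell by 2.02 ± 0.09, PYL1 by 1.27 ± 0.12 and PYL8, a receptor of the monomeric type, by 0.98 ± 0.06. PYL7 was the exception, with 18.1, 15.1 and 14.6 TPM in DMSO and 45.6, 39.2 and 37.9 TPM with the compound, a rise of 1.31 ± 0.11 without overlap between the groups. The decrease of PYL2 was small (-0.47 ± 0.15, adjusted p = 0.029 in limma) and was no longer called when DMSO replicate 1 or 3, or 3'-butyl ABA replicate 2 or 3, was left out, where it lay between -0.45 and -0.39. PYL9 was not called in the full comparison, with 15.4, 6.19 and 9.39 TPM in DMSO and 21.2, 15.5 and 16.2 TPM with the compound (0.79 ± 0.30, adjusted p = 0.071 in limma). DMSO replicate 1 held the highest of its DMSO values, and without that library PYL9 rose by 1.09 (adjusted p = 0.0013), which brought the receptors that rose to 2.

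All 9 clade A PP2C genes, which encode the phosphatases that the receptors inhibit, rose, with a median of 3.17. Among the 3 HAI genes, levels in DMSO were low. HAI1 (AT5G59220, chromosome 5, 23894404 to 23896939) had 1.13, 0.938 and 1.89 TPM in DMSO and 204, 167 and 149 TPM with the compound (6.24 ± 0.17). HAI2 went from 1.40, 1.37 and 0.955 to 124, 110.0 and 95.4 TPM (5.63 ± 0.13) and HAI3 from 0.105, 0.0872 and 0 to 46.7, 30.1 and 26.5 TPM (5.02 ± 0.21). No DMSO library reached 2 TPM in any of these, and no treated library was under 26 TPM. The phosphatases with higher DMSO levels rose less. ABI1, first found through a dominant ABA-insensitive mutant, had 53.8, 49.9 and 53.7 TPM in DMSO and 380.5, 330.1 and 297 TPM with the compound (2.65 ± 0.09). ABI2 rose by 3.52 ± 0.11, AHG3 by 3.17 ± 0.21, HAB1 by 2.55 ± 0.12 and HAB2 by 1.24 ± 0.10. AHG1, known from seeds, had 1.68, 0.0823 and 0.0958 TPM in DMSO, where replicate 1 was far above the other libraries, and 11.3, 8.16 and 8.37 TPM with the compound (2.79 ± 0.36, and 3.23 without that replicate).

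**Figure D2:**
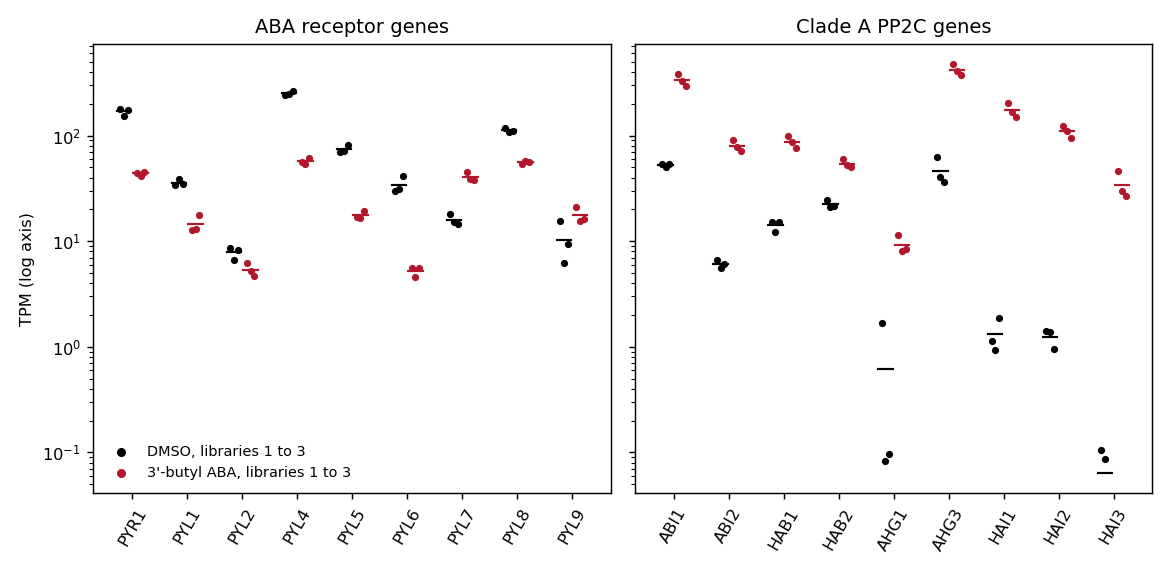
TPM of the receptor and clade A PP2C genes in each of the 6 libraries, on a log axis (DMSO and 3'-butyl ABA in separate colours, each point a library). HAI3 in DMSO replicate 3 is listed at 0 and has no point. The treated libraries lie below the DMSO libraries for PYR1, PYL1, PYL2, PYL4, PYL5, PYL6 and PYL8, and above them for PYL7, PYL9 and all 9 PP2C genes.

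Genes of the SnRK2 kinases changed less than those of the phosphatases. Of 10 measured, 7 rose, none fell and 3 were not called, with a median of 0.44. OST1, which carries ABA signals in guard cells, had 24.9, 18 and 20.2 TPM in DMSO and 80.9, 65.1 and 64.7 TPM with the compound (1.7 ± 0.13). Its close relatives SNRK2.2 and SNRK2.3 rose by 0.36 ± 0.09 and 0.64 ± 0.08, the former no longer called without 3'-butyl ABA replicate 1. SNRK2.1 and SNRK2.10 each rose by 0.44 ± 0.07 and SNRK2.7 by 1.09 ± 0.22. SNRK2.9 rose by 1.45 ± 0.37, a call lost without DMSO replicate 3 or 3'-butyl ABA replicate 1. SNRK2.4, SNRK2.5 and SNRK2.8 were not called, at 0.08 ± 0.10, 0.33 ± 0.19 and 0.36 ± 0.16. Without DMSO replicate 1, SNRK2.5 rose by 0.53 (adjusted p = 0.0099 in limma) and SNRK2.8 by 0.50 (adjusted p = 0.018), which brought the kinases that rose to 9 of 10.

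Of 13 measured genes for ABF factors, their bZIP relatives and the ABI and AFP proteins around them, 10 rose and none fell, with a median of 1.36. ABF3, a bZIP factor that binds the ABA-responsive element, had 18.8, 9.28 and 12 TPM in DMSO and 169, 138 and 132 TPM with the compound (3.41 ± 0.24). GBF3, a related bZIP factor, went from 13.2, 5.90 and 6.71 to 119, 85.6 and 90.3 TPM (3.43 ± 0.29). AFP1 and AFP3, of the ABI5-binding proteins that restrain the pathway, rose by 4.75 ± 0.12 and 3.96 ± 0.26, AFP1 from 4.42, 3.43 and 3.51 to 147, 128 and 111 TPM. All of these had 3 treated libraries far above the DMSO libraries. ABF2 rose by 1.95 ± 0.11.

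Other factors of the drought response rose with them. Of 10 HD-Zip I factors, 9 rose (median 1.30), led by HB-7 and HB-12, a pair that responds to water deficit. HB-7 had 15.1, 10.2 and 8.75 TPM in DMSO and 485, 417 and 376 TPM with the compound (5.14 ± 0.20). HB-12 rose by 4.94 ± 0.16, HB21 (AT2G18550), an inhibitor of branching, by 4.00 ± 0.20 and HB40 by 2.74 ± 0.19. Of 11 NAC factors 8 rose and 2 fell (median 1.86). Of the decreases, that of NAC083 (-0.34 ± 0.08) was called whichever library was left out, while that of NAC042 (-0.70 ± 0.25) was lost without DMSO replicate 2 or 3, or without 3'-butyl ABA replicate 1 or 2. NAP, a promoter of leaf senescence, went from 0.878, 0.729 and 0.364 to 45.7, 43.2 and 36.7 TPM (4.70 ± 0.15). RD26 rose by 3.84 ± 0.21, NAC019 by 3.27 ± 0.33 and NAC032 by 3.02 ± 0.13. Among 10 MYB factors 8 rose and none fell (median 0.77; without DMSO replicate 1, 1 fell). MYB74 rose by 4.05 ± 0.23, MYB102 by 3.89 ± 0.18, and MYB41, an activator of suberin genes, by 2.66 ± 0.19, from 0.113, 0 and 0 to 7.00, 5.41 and 4.45 TPM. Of 10 NF-YA subunits of the CCAAT-binding complex, 7 rose and none fell (median 0.83). NF-YA5, known for a role in drought resistance, rose by 1.79 ± 0.21 and NF-YA1 by 1.26 ± 0.13.

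The CBF and DREB factors are best known from cold and dehydration. The list used here also holds their relatives RAP2.4, RAP2.6 and ABR1. Of 9 measured, 7 rose and 1 fell, with a median of 1.24. Each measured gene named CBF or DREB rose. The decrease was that of ABR1 (-0.96), and its call was lost without any 1 of DMSO replicate 2 and the 3 treated replicates. CBF3 had 1.92, 2.44 and 1.09 TPM in DMSO and 32.8, 32.2 and 26.7 TPM with the compound (3.51 ± 0.19). CBF2 rose by 2.57 ± 0.27, DREB2A by 2.41 ± 0.25 and CBF4 by 1.94 ± 0.22. Genes of the heat response divided. Of 13 heat shock factors and heat shock proteins 4 rose, 1 fell (2 without DMSO replicate 1) and 8 were not called. HSFA6B, a heat shock factor that responds to ABA, had 1.19, 1.40 and 0.962 TPM in DMSO and 81.9, 49.1 and 56.5 TPM with the compound (4.83 ± 0.19). HSFA6A was listed at 0 in all 3 DMSO libraries and had 34.1, 19.0 and 18.3 TPM with the compound. HSFC1 rose by 1.75 ± 0.11 and HSFB1 by 1.30 ± 0.20. None of the 6 heat shock protein genes was called, although without DMSO replicate 1 HSP90.1 fell by 0.45 (adjusted p = 0.024 in limma). All of them were lowest in replicate 1 among the DMSO libraries, HSP70 for example with 47.6, 125 and 129.6 TPM in DMSO and 103, 151 and 122 TPM with the compound, and in each the groups overlapped.

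Genes of ABA turnover moved on both the making and the breaking side. Of 6 measured synthesis genes 4 rose and none fell (median 0.73). NCED3, the dioxygenase of the rate-limiting step under drought, had 11.3, 7.49 and 6.39 TPM in DMSO and 131, 115 and 94.5 TPM with the compound (3.63 ± 0.21). ABA1, zeaxanthin epoxidase, rose by 1.46 ± 0.06, ABA4 by 0.92 ± 0.12 and ABA2 by 0.54 ± 0.12. AAO3, the aldehyde oxidase of the last step, was not called at 0.32 ± 0.12, nor was ABA3 at 0.25 ± 0.15. Of 9 genes for breakdown and conjugation, a list that also holds glucosidases for the release of ABA from its glucose ester, 7 rose (median 1.01). All 4 CYP707A genes, whose products hydroxylate ABA at its 8' carbon, rose. CYP707A1 went from 10.3, 6.78 and 9.54 to 146, 111 and 124 TPM (3.71 ± 0.16), and CYP707A3 rose by 1.44 ± 0.10, CYP707A4 by 1.25 ± 0.18 and CYP707A2 by 1.01 ± 0.14. BGLU18, a glucosidase that frees ABA from its glucose ester, had 29.5, 51.1 and 63.2 TPM in DMSO and 443, 438 and 471 TPM with the compound (3.27 ± 0.27). The single decrease of that list, UGT71C5 at -0.24 ± 0.09, was lost when DMSO replicate 3 or any treated replicate was left out, where it lay between -0.26 and -0.16. Of 8 ABA transporters 2 rose and 1 fell, beside 24.2% and 26% of all genes tested. ABCG25, an exporter, rose by 1.68 ± 0.14, NPF5.1 by 0.95 ± 0.10, and DTX50, another exporter, fell by 0.85 ± 0.15.

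Late embryogenesis abundant (LEA) and other dehydration proteins, which shield membranes and proteins in drying cells, had the highest median of the 59 lists. Of 27 measured, 26 rose and none fell, with a median of 3.71. The list took 0.281, 0.253 and 0.261% of all TPM in the DMSO libraries and 1.88, 1.81 and 1.66% with the compound; the exact two-sided permutation test of 3 against 3 libraries gave p = 0.1, the smallest it allows. RD29B, whose promoter is a standard reporter of ABA, had 2.75, 2.4 and 1.89 TPM in DMSO and 316, 241 and 242 TPM with the compound (6.32 ± 0.14). LEA7 had 6.95, 2.45 and 3.52 TPM in DMSO and 968, 662 and 708 TPM with the compound (7.27 ± 0.33). Both separated fully. EM6, an abundant protein of dry seeds, went from 0.436, 0.181 and 0.632 to 62.7, 62.6 and 64.5 TPM (5.52 ± 0.13). KIN1 had 9.85, 2.67 and 2.74 TPM in DMSO, highest in replicate 1, and 1686, 1533 and 1365 TPM with the compound (8.17 ± 0.44, and 8.68 without that replicate). Its near-identical neighbour KIN2 went from 179.7 ± 70.1 TPM (mean ± SD, n = 3) to 3481 ± 475 TPM, and how reads were divided between such copies is not given in the sources used here. LEA4-5 rose by 6.84 ± 0.15, from 1.56, 1.15 and 1.01 to 319, 236 and 221 TPM. SAG21 was the one gene not called, at 0.03 ± 0.10.

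Promoters of these genes are shown because their family is the classic set of ABF targets, with HAI1 as the most induced phosphatase and ARR7, a cytokinin response regulator that fell by 2.76, for contrast. Each line gives the 200 bases that end just before the annotated start of the gene, 5' to 3' on the gene's own strand, in the TAIR10.1 assembly of RefSeq. Capitals mark matches to the ACGTG core of the ABA-responsive element and to GCCGAC. The latter is a form of the core of the drought-responsive element bound by CBF and DREB factors. Its other form, ACCGAC, was not searched or marked. Both strands were searched, so a match on the other strand appears as the reverse complement, and neighbouring matches on opposite strands can overlap, as in EM6.
RD29B, chr5:21236821-21237020, plus strand: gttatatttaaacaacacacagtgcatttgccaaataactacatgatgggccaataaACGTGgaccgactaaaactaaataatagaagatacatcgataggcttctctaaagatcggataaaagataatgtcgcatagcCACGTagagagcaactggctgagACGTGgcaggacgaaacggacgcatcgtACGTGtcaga
LEA7, chr1:19619524-19619723, plus strand: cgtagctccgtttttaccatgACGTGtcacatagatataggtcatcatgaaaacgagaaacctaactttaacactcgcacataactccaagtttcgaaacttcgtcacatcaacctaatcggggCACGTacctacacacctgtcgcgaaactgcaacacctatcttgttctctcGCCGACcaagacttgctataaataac
EM6, chr2:16780369-16780568, minus strand: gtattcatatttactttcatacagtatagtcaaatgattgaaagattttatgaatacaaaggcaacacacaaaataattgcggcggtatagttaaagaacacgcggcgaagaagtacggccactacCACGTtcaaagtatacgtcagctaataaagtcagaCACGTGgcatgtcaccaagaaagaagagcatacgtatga
KIN1, chr5:5209517-5209716, plus strand: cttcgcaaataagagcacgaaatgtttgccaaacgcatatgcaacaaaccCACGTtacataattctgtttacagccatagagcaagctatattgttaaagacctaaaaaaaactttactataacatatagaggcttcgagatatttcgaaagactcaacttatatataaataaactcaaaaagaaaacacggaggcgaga
HAI1, chr5:23896940-23897139, minus strand: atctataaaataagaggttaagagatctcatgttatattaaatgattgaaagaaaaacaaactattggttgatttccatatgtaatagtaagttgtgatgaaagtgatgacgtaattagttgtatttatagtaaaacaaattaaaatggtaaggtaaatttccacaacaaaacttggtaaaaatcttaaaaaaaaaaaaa
ARR7, chr1:6579315-6579514, minus strand: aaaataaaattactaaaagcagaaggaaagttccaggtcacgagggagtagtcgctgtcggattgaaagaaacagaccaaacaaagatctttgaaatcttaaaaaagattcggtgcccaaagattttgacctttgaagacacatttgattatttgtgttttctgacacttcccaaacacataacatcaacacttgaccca
These windows hold 4 matches to the ACGTG core upstream of RD29B, 3 of EM6, 2 of LEA7, 1 of KIN1, and none of HAI1 or ARR7. LEA7 also holds 1 GCCGAC match.

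Across the genome, the core was more frequent the more a gene had risen. In the 250 bases upstream of the start, ACGTG on either strand was present in 24.0% of the promoters of 19507 genes tested. The share was 22.4% of 9703 genes not called, 28.4% of 3215 that rose by less than 2-fold, 42.5% of 1528 that rose by at least 2-fold and 57.5% of the 80 among these that rose by at least 16-fold. Among genes that fell it was 18.7% of 4356 below 2-fold and 19.6% of 705 at or beyond it. The longer forms ACGTGTC and ACGTGGC, which contain the core, were in 4.398% and 3.96% of all promoters, in 13.1% and 9.62% of those that rose by at least 2-fold, and in 1.13% each of those that fell by at least 2-fold. GCCGAC was in 2.88% of all, 4.52% of those that rose and 2.27% of those that fell by at least 2-fold. By list, 19 of 27 LEA promoters (70.4%) and 6 of 9 PP2C promoters (66.7%) held the core, against 2 of 9 receptor promoters and 4 of 16 of ribosome biogenesis genes. Of the suberin genes, most of which also rose, 6 of 19 (31.6%) held it. A match is a description of the sequence and not evidence of binding.

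**Figure D3:**
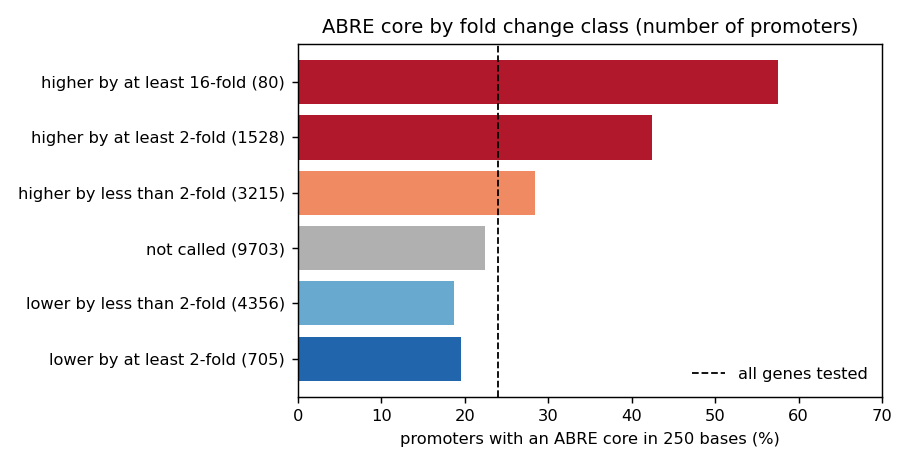
Share of promoters with ACGTG on either strand in the 250 bases upstream of the gene start (horizontal axis, percent), by class of change with 3'-butyl ABA. The dashed line is the share over all genes tested, 24.0%, and the share climbs to 42.5% of genes at least 2-fold higher and to 57.5% of the subset at least 16-fold higher.

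Lipid transfer proteins, small proteins that carry lipids to the cell surface, moved in both directions: of 11 measured, 6 rose and 5 fell. EARLI1 went from 109, 72.0 and 106 to 3.61, 8.37 and 7.94 TPM (-3.71 ± 0.32). AZI1, a related protein of systemic defence priming, had 455, 523 and 585 TPM in DMSO and 61.8, 75.1 and 107 TPM with the compound (-2.69 ± 0.21). In both, the groups did not overlap and moved opposite to LTP3 and LTP4, which rose by 6.85 ± 0.32 and 8.00 ± 0.13 and are near-identical copies of each other. Among 9 seed storage and oil body genes 8 rose (median 1.43). OLEO1 and OLEO2, the oleosins that coat oil bodies, rose by 3.83 ± 0.39 and 3.93 ± 0.44, OLEO2 from 8.15, 6.76 and 1.97 to 82.0, 78.9 and 111 TPM. PER1, a seed peroxiredoxin, rose by 2.46 ± 0.25.

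Suberin is a lipid polymer laid down in root endodermis and periderm. Of 19 genes for its synthesis and export, 16 rose and 1 fell, with a median of 2.05. ABCG6, a transporter of suberin precursors, had 5.25, 1.04 and 1.99 TPM in DMSO and 137, 97.8 and 112 TPM with the compound (5.1 ± 0.42). KCS2, which elongates the fatty acids, went from 6.91, 3.31 and 3.93 to 111, 82.7 and 89.2 TPM (4.1 ± 0.24), and ASFT, which adds ferulate, from 17.56, 7.15 and 9.65 to 233, 173 and 197 TPM (4.1 ± 0.31). Each treated library was above each DMSO library in all 3, and DMSO replicate 1 was the highest of the DMSO libraries in all 3. GPAT5, an acyltransferase, rose by 3.74 ± 0.35 and GPAT7 by 3.39 ± 0.21. Without DMSO replicate 1, 17 rose and 1 fell with a median of 2.297. In the full comparison the mean log2(TPM + 1) of each root marker list overlapped between the groups. The exact permutation test gave p = 0.2 for endodermis, 0.4 for root hair and 0.4 for other root markers. Of all genes tested, 24.2% rose and 26% fell. The endodermis markers summed to 76.4 to 182 TPM in DMSO and 151 to 191 TPM with the compound, 3 of 10 rose, and none of the 10 was at 0 in all 6 libraries; without DMSO replicate 1, 9 of 10 rose with a median of 1.15. CASP5, of the Casparian strip proteins, rose by 1.97 ± 0.28 and SGN3, the receptor kinase that monitors the strip, by 1.17 ± 0.26. Root hair markers summed to 89.8 to 255 TPM and 111 to 208 TPM, with 1 of 8 called (2 without that replicate), and the 7 other root markers to 1557 to 3067 TPM and 1839 to 2099 TPM, with 1 higher (3 without DMSO replicate 1, none without DMSO replicate 2 or 3 or 3'-butyl ABA replicate 1 or 3) and 1 lower. The part of these markers in the suberin result was not tested.

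**Figure D4:**
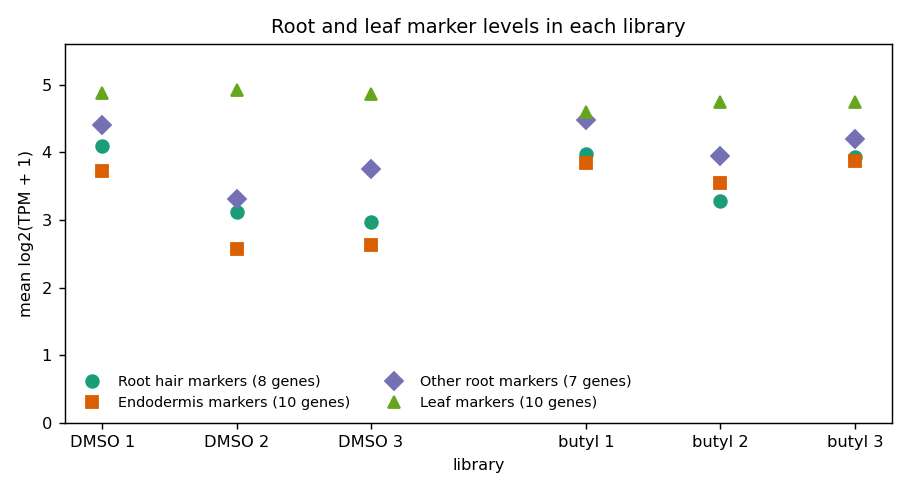
Mean log2(TPM + 1) of the root hair, endodermis, other root and leaf marker lists in each of the 6 libraries along the horizontal axis. Each point is a library, and colours and shapes mark the lists. DMSO replicate 1 lies above both other DMSO libraries for all 3 root lists, for example 3.72 against 2.57 and 2.63 for the endodermis.

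Genes for the waxes and cutin of the shoot surface had no common direction. Of 13 wax genes 6 rose and 4 fell. CER1, needed for alkanes, had 14.9, 17.9 and 14.8 TPM in DMSO and 133, 132 and 137 TPM with the compound (3.01 ± 0.08). KCS12 fell by 1.73 ± 0.14 and LACS1, an acyl-CoA synthetase, by 1.56 ± 0.10. Of 11 cutin genes 4 rose and 3 fell. The 4 were 2 without DMSO replicate 3 or without 3'-butyl ABA replicate 2 or 3, and 1 without 3'-butyl ABA replicate 1. BDG1 fell by 0.66 ± 0.11.

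Genes for compatible solutes, which lower the water potential of the cell, had some of the clearest increases. P5CS1, the enzyme that commits glutamate to proline, had 23.2, 18.6 and 18.1 TPM in DMSO and 614, 525 and 488 TPM with the compound (4.70 ± 0.12). The proline list as a whole did not follow it: of 9 measured, 3 rose, 2 fell and 4 were not called, with the breakdown enzyme P5CDH at 0.99 ± 0.07 and the transporter PROT3 at -0.91 ± 0.21. Of 10 genes for galactinol, raffinose and inositol 8 rose and 2 fell (median 0.84). GOLS2, a galactinol synthase, went from 0.656, 0.817 and 0.634 to 64.6, 38.7 and 37.6 TPM (4.77 ± 0.20), GOLS4 rose by 3.75 ± 0.25 and MIPS2, which makes inositol phosphate, by 2.38 ± 0.12. MIOX2, which oxidises inositol, fell by 1.21 ± 0.09.

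Carbohydrate genes changed more modestly. Of 11 starch breakdown genes 7 rose and none fell. BAM1, a beta-amylase of stressed leaves, had 20.4, 20.07 and 21.3 TPM in DMSO and 110.0, 82.3 and 81.1 TPM with the compound (2.08 ± 0.12), and MEX1, the maltose exporter of the chloroplast, rose by 1.01 ± 0.10. Of 6 starch synthesis genes 2 rose, among them APL3 by 1.65 ± 0.18. Of 8 trehalose phosphate synthase genes 7 rose (median 0.67), with TPS11 at 1.76 ± 0.19. Sugar transporters divided, 5 higher and 6 lower of 15. SWEET15, a sucrose exporter of senescing leaves and seeds, had 6.39, 11.8 and 9.77 TPM in DMSO and 96.7, 101 and 90.7 TPM with the compound (3.27 ± 0.19). ESL1, a vacuolar monosaccharide transporter, rose by 1.55 ± 0.13 while its relative ERD6 fell by 1.32 ± 0.10, and the sucrose carrier SUC1 fell by 1.04 ± 0.18.

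Of 14 genes that break down branched-chain amino acids and methionine, 10 rose and none fell (median 0.66; 13 rose without DMSO replicate 1). MGL, methionine gamma-lyase, had 10.6, 10.3 and 10.7 TPM in DMSO and 116, 95.2 and 101 TPM with the compound (3.18 ± 0.09), and BCE1A2, a subunit of the branched-chain keto acid dehydrogenase, rose by 1.73 ± 0.12. As a list, genes of nitrogen assimilation had no common direction. Of 15 nitrate and amide genes 5 fell and 3 rose (1 without 3'-butyl ABA replicate 2 or 3), near the 26% and 24.2% of all genes tested, with a median of -0.07. UPM1, which makes the siroheme cofactor of nitrite reductase, had 285, 308 and 282 TPM in DMSO and 141, 157 and 143 TPM with the compound (-0.98 ± 0.06). NIR1, nitrite reductase itself, fell by 0.72 ± 0.09, and the nitrate reductase genes NIA1 and NIA2 fell by 0.65 and 0.16. The NIA2 call was lost without DMSO replicate 2 or 3 or 3'-butyl ABA replicate 1 or 2. ASN1, asparagine synthetase, rose by 2.36 ± 0.43. Genes of the low-oxygen response depended on single libraries. Of 10 measured, 5 rose and 1 fell, but 8 rose without DMSO replicate 1, 3 without DMSO replicate 2, 1 without DMSO replicate 3 or 3'-butyl ABA replicate 1, and 2 without 3'-butyl ABA replicate 3. SUS1, a sucrose synthase, kept its call in each of these at 2.09 ± 0.33 in the full comparison. The factor HRE1 moved against the rest, from 54.1, 23 and 35.6 to 15.5, 13 and 11.8 TPM (-1.34 ± 0.30).

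Of 20 flavonoid and anthocyanin genes 11 rose and 2 fell (median 0.90). F3H, flavanone 3-hydroxylase, had 19.98, 14.0 and 14.5 TPM in DMSO and 86.6, 62.2 and 73.1 TPM with the compound (2.13 ± 0.16). TT19, a transport protein for anthocyanins, rose by 1.78 ± 0.31 and PAP1, a MYB activator of the pathway, by 1.66 ± 0.21. Glucosinolates, sulphur-rich defence compounds of the cabbage family, had more decreases: of 22 genes 11 fell (7 without DMSO replicate 3 or 3'-butyl ABA replicate 3) and 1 rose (3 without DMSO replicate 3 or 3'-butyl ABA replicate 1). CYP79F2, which makes aldoximes from elongated methionine, went from 76.7, 67.1 and 71.4 to 22.9, 25.9 and 23.5 TPM (-1.53 ± 0.08). CYP81F2, which modifies indole glucosinolates, fell by 1.57 ± 0.26 and BCAT4, the first enzyme of methionine elongation, by 1.02 ± 0.10.

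Nuclear genes for light harvesting rose almost throughout. Of 21 measured, 19 rose and none fell (median 0.70). Together they took 4.21, 4.33 and 3.71% of TPM in the DMSO libraries and 6.29, 6.50 and 6.47% with the compound, without overlap, at the smallest p the exact permutation test allows (0.1). LHCB2.3 went from 119, 87.5 and 95.9 to 370.3, 335 and 360.1 TPM (1.82 ± 0.11) and LHB1B1 from 677, 594 and 492 to 1811, 1706 and 1757 TPM (1.59 ± 0.11). These genes have near-identical copies, so values of single LHCB1 and LHCB2 genes are uncertain. Leaf markers moved the other way: the 10 summed to 312 to 336 TPM in DMSO and 247 to 286 TPM with the compound, 5 fell and 1 rose (none without DMSO replicate 2 or 3, or 3'-butyl ABA replicate 1 or 3), and none was at 0 in all 6 libraries. Their part in the result was not tested.

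Most small subunit genes of Rubisco did not follow the light-harvesting genes. RBCS1B had 948, 977 and 839 TPM in DMSO and 459, 494 and 492 TPM with the compound (-0.93 ± 0.07), with the caution that the RBCS genes are near-identical. RBCS2B and RBCS3B fell by 0.48 and 0.27. RBCS1A rose by 0.17, a call lost without DMSO replicate 1 or 3 or 3'-butyl ABA replicate 2 or 3. Of the 18 Rubisco and Calvin cycle genes 12 rose and 3 fell (median 0.25). CP12-2, a regulatory protein of the cycle, rose by 1.49 ± 0.21. Chlorophyll genes were split on the synthesis side, where 7 rose and 8 fell of 18. CAO, which makes chlorophyll b, went from 64.0, 62.3 and 53.8 to 132, 126 and 126 TPM (1.08 ± 0.08). On the breakdown side 7 of 9 rose and none fell (median 0.60): NYE1, the magnesium dechelatase that starts chlorophyll breakdown, rose by 1.46 ± 0.13 and SAG13, a senescence marker, by 2.19 ± 0.30. Of 75 genes encoded in the plastid itself, 27 fell and none rose (median -0.25; 1 or 3 rose when DMSO replicate 2 or 3'-butyl ABA replicate 1 or 2 was left out), and they took 1.29, 1.39 and 1.38% of TPM in DMSO and 1.11, 1.25 and 1.18% with the compound (exact permutation p = 0.1). Plastid transcripts mostly lack poly(A) tails, so poly(A) libraries hold a small and selected part of them.

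Genes that build ribosomes fell together. All 16 ribosome biogenesis genes fell, with a median of -0.96. FIB2, fibrillarin of the nucleolus, had 424, 524 and 471 TPM in DMSO and 164, 168 and 166 TPM with the compound (-1.50 ± 0.08). NOP56, which binds box C/D small nucleolar RNAs, went from 464, 563 and 524 to 211, 234 and 229 TPM (-1.20 ± 0.08), and BRX1-2, of large subunit assembly, fell by 1.18 ± 0.08. None of these overlapped between the groups. Among 281 genes annotated as ribosomal proteins, a list taken after values had been seen, 255 fell and 6 rose (12 without DMSO replicate 1), with a median of -0.71. Mitochondria-encoded genes were mostly not called: of 51, 8 fell and 1 rose (20 fell without DMSO replicate 1, and 2 rose without DMSO replicate 3). These 51 are the part of 122 that passed the filter. All 122 took only 0.035, 0.043 and 0.042% of TPM in DMSO and 0.031, 0.035 and 0.033% with the compound.

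Growth genes gave smaller and mixed counts. Of 23 cell cycle and replication genes 7 fell and 1 rose, beside 26% and 24.2% of all genes tested. Without 3'-butyl ABA replicate 1, 4 fell, and without DMSO replicate 1, 10 fell. Without 3'-butyl ABA replicate 2, 2 rose. PCNA1, the sliding clamp of DNA replication, fell by 0.70 ± 0.13, and CYCD1;1 rose by 0.75 ± 0.09. None of 3 cell cycle inhibitors was called. Of 13 expansins, which loosen cell walls, 8 fell and 3 rose. EXPA1 fell by 1.64 ± 0.16 and EXPA2, known from germinating seeds, by 2.95 ± 0.41, from 8.54, 14.8 and 24.0 to 0.326, 1.35 and 1.61 TPM. EXPA16 went the opposite way, from 6.52, 7.71 and 9.70 to 109.8, 159 and 165 TPM (4.01 ± 0.19). Of 20 xyloglucan endotransglucosylases, which cut and rejoin wall xyloglucan, 10 fell and 4 rose, with XTH20 at -2.16 ± 0.23 and XTH33 at -1.78 ± 0.22.

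Auxin and cytokinin genes differed in how far they moved. Of 15 Aux/IAA and GH3 genes 6 fell and 3 rose; GH3.3, which conjugates auxin to amino acids, fell by 0.93 ± 0.14. Of 6 genes of the SAUR19 to SAUR24 group, near-identical copies, 1 fell, a call lost without DMSO replicate 1 or 3 or 3'-butyl ABA replicate 2 or 3. Of 9 auxin transporters 2 fell, the influx carriers LAX3 (-0.70 ± 0.16) and AUX1 (-0.42 ± 0.08), and none rose (1 without DMSO replicate 1). Over all genes tested, 26% fell and 24.2% rose. The type-A response regulators are primary targets of cytokinin that damp its signal, and 5 of 9 fell while none rose. ARR7, whose promoter is shown above, had 87.6, 105 and 114 TPM in DMSO and 12.3, 16.7 and 13.9 TPM with the compound (-2.76 ± 0.13). ARR6 went from 35.3, 36.1 and 36.9 to 5.52, 5.91 and 6.30 TPM (-2.43 ± 0.08), and ARR5 and ARR4 fell by 1.66 ± 0.13 and 1.45 ± 0.07. In ARR6 and ARR7 every treated library was far below every DMSO library. ARR15 was low throughout, with 2.04, 1.57 and 1.83 TPM in DMSO and 0, 0.515 and 0.140 TPM with the compound (-1.23 ± 0.22). The 4 regulators not called overlapped between the groups, and without DMSO replicate 1, 3 members rose.

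Of 18 gibberellin genes 6 rose and 4 fell, beside 24.2% and 26% of all genes tested. GA2OX8 and GA2OX2, which inactivate gibberellins, fell by 1.50 ± 0.18 and 1.03 ± 0.17, as did GA3OX1, which makes the active form, by 0.91 ± 0.14. RGL3, a DELLA repressor, rose by 0.94 ± 0.19. Of 15 ethylene genes 7 fell and 2 rose, and each left-out library took the number that rose to 1 or 0. ERF1, a response factor, fell by 1.35 ± 0.23, and ACO4, which makes ethylene, by 0.97 ± 0.11.

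Of 23 jasmonate genes 7 rose and 6 fell (3 without DMSO replicate 2, and 2 without 3'-butyl ABA replicate 1 or 2). The shares over all genes tested were 24.2% and 26%. VSP2, a vegetative storage protein, had 16.7, 22.9 and 39.0 TPM in DMSO and 242, 320.2 and 309 TPM with the compound (3.50 ± 0.31). Its close copy VSP1 rose by 1.90 ± 0.14, and LOX2, a lipoxygenase of jasmonate synthesis, by 1.66 ± 0.20. PDF1.2, a defensin of the ethylene and jasmonate branch, was listed at 0 in all treated libraries and had 0.542, 0.900 and 4.98 TPM in DMSO. Of 20 immunity genes 10 fell and none rose (median -0.37), with 6 lower without DMSO replicate 3 or 3'-butyl ABA replicate 1 or 3, and 1 higher without DMSO replicate 1. FLS2, the flagellin receptor, had 36.5, 43.1 and 45.0 TPM in DMSO and 18.8, 19.8 and 23 TPM with the compound (-0.98 ± 0.11), PR5, a marker of the salicylic acid response, fell by 1.34 ± 0.26, and WRKY18 by 1.05 ± 0.17.

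**Figure D5:**
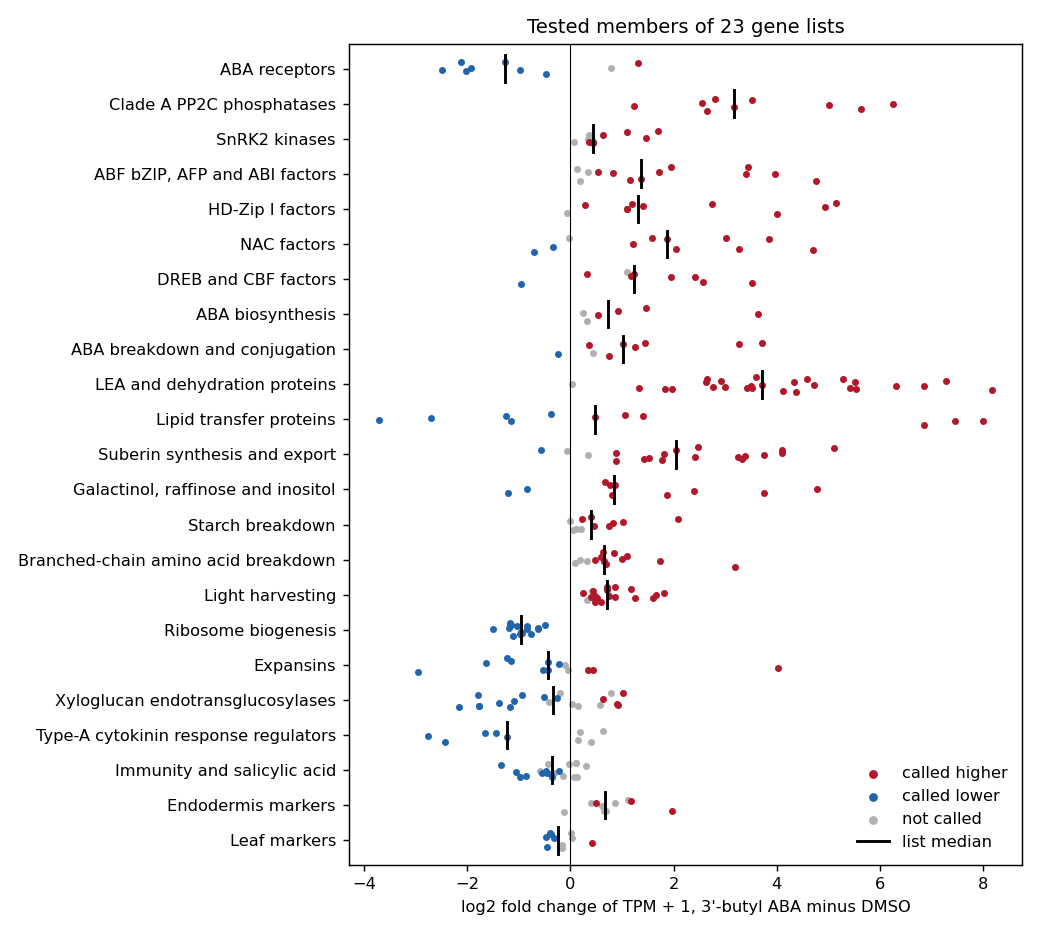
Log2 fold change (3'-butyl ABA against DMSO, horizontal axis) of each measured member of 23 gene lists, with the list median as a bar; coloured points passed the test. The medians run from 3.71 for LEA and dehydration proteins and 3.17 for PP2C phosphatases to -1.23 for type-A response regulators and -1.27 for receptors.

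Of 14 clock genes 8 rose and none fell (median 0.41). PRR9 had 3.89, 4.32 and 5.25 TPM in DMSO and 24.9, 18.1 and 14.9 TPM with the compound (1.86 ± 0.19), and RVE1 and CCA1, related MYB factors, rose by 1.53 ± 0.24 and 1.26 ± 0.14. Of 13 light signalling genes 6 rose and none fell (1 without DMSO replicate 1). HFR1, a repressor of shade responses, had 9.08, 5.22 and 4.19 TPM in DMSO and 41.4, 37.3 and 31.5 TPM with the compound (2.45 ± 0.25), and PIF4, which promotes elongation, rose by 1.1 ± 0.09.

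Of 18 aquaporins 7 rose (11 without DMSO replicate 1) and 2 fell (none without 3'-butyl ABA replicate 1 or 2). PIP2A, a plasma membrane water channel, rose by 1.09 ± 0.22 and had its highest DMSO value in replicate 1 (469, 272 and 276 TPM in DMSO and 723, 656 and 722 TPM with the compound). Of 13 antioxidant enzymes 7 rose and 4 fell. DHAR1, dehydroascorbate reductase, had 187, 208 and 195 TPM in DMSO and 525, 544 and 546 TPM with the compound (1.45 ± 0.06), and CSD2, the chloroplast copper/zinc superoxide dismutase, fell by 1.26 ± 0.13. Of 8 iron genes 2 rose and 3 fell, with PYE, a regulator of the iron response, at 1.47 ± 0.13. Of 11 phosphate starvation genes 2 rose and 1 fell (4 and 2 without DMSO replicate 1, and 2 fell without DMSO replicate 2). Those that rose were the purple acid phosphatase PAP17 (1.98 ± 0.16) and the pyrophosphatase PS2 (1.93 ± 0.17).

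Guard cell genes showed no common shift: of 8 measured markers 2 rose and 4 fell (2 without DMSO replicate 3 or 3'-butyl ABA replicate 1). They summed to 97.2 to 114 TPM in DMSO and 97.7 to 104 TPM with the compound. GORK, the outward potassium channel that drains guard cells, rose by 1.7 ± 0.14, and MYB60, a guard cell factor known to be repressed by ABA, fell by 1.19 ± 0.14. Of 11 genes of the stomatal lineage 3 fell and none rose, beside 26% and 24.2% of all genes tested. EPF2, a peptide that limits entry into the lineage, fell by 1.61 ± 0.13 and SPCH, the factor that starts it, by 0.84 ± 0.19.

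Several of the largest changes lay outside these lists. AT4G33550, of the lipid transfer and seed albumin superfamily, had 5.92, 2.88 and 2.96 TPM in DMSO and 516, 427 and 417 TPM with the compound (6.58 ± 0.24). PUB19, a U-box ubiquitin ligase, went from 1.62, 0.592 and 1.13 to 209.9, 168 and 132 TPM (6.34 ± 0.23), and AT5G50360, annotated with a von Willebrand factor A domain, from 0, 0.103 and 0 to 72.6, 56.5 and 45.7 TPM (5.82 ± 0.17). All 3 had DMSO levels under 6 TPM in every library. In the 3 largest decreases, DMSO replicate 1 was the lowest of the DMSO libraries. AT1G29090, of the cysteine proteinase superfamily, had 40.03, 95.7 and 103 TPM in DMSO and was listed at 0 in all treated libraries, and so was AT5G46960, of the invertase and pectin methylesterase inhibitor superfamily, with 9.15, 40.9 and 28.8 TPM in DMSO. CP1, a cysteine proteinase, went from 50.4, 150.4 and 169 to 2.63, 3.13 and 4.21 TPM (-4.68 ± 0.48, and -5.23 without that replicate). AT5G19890, a peroxidase, had 46.3, 16.2 and 28.5 TPM in DMSO and 1.1, 0.912 and 1.32 TPM with the compound (-3.78 ± 0.35). AT1G22690, of the gibberellin-regulated family, went from 298, 304 and 293 to 27.0, 28.0 and 23.3 TPM (-3.47 ± 0.08), and CRK30, a cysteine-rich receptor-like kinase, from 25, 29.7 and 31.1 to 1.56, 2.14 and 1.89 TPM (-3.37 ± 0.13). In all of these the treated libraries were close to each other and far below the DMSO libraries. Absence of overlap was a condition for naming the largest changes, so it is no separate result. Among the most abundant genes that changed by at least 2-fold, COR413-PM1, a cold-regulated protein of the plasma membrane, rose by 3.52 ± 0.17 and AT4G23670, of the polyketide cyclase superfamily, by 2.6 ± 0.09, while MTO3, an S-adenosylmethionine synthetase, fell by 1.25 ± 0.08 and AGP15, an arabinogalactan protein, by 1.06 ± 0.07.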

How the data were processed

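The deposited values are TPM per gene and library as computed by the authors, and every library totals 1000000 TPM. The submitters' processing notes name TAIR10 as genome and bcl2fastq as a tool. Which aligner, counter and annotation release produced them is not given in the sources used here. Read counts were recovered from the deposited TPM: in each library 99.4 to 99.5% of 3728 to 4004 genes with under 20 reads lay within 0.01 read of a whole multiple of 1 step, given exon lengths from the annotation. That step gave 9827000 to 12443000 reads in genes and 1 read at 1 kb as 0.130 to 0.168 TPM.

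From the deposited TPM, log2(TPM + 1) was computed here for genes that averaged at least 1 TPM in the 6 libraries, and fitted with limma 3.58.1 in R 4.3.3 (eBayes with trend and robust settings, 4 residual degrees of freedom, two-sided, Benjamini-Hochberg adjustment over all 19634 genes). Lists were described by counts and medians, and single values per library by exact permutation tests. Gene names, products and promoters came from RefSeq's TAIR10.1 annotation, which covered 27445 of 27655 gene identifiers. The comparison, the 59 lists and the named genes' rule were chosen with earlier results of these data known.

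Genes were named by rule: the 12 largest increases and 12 largest decreases among called genes without overlap, up to 5 members of each list by absolute change (all members for receptors, PP2C, SnRK2, synthesis and breakdown), the 10 most abundant genes changed at least 2-fold, and up to 2 members of the 6 highest and 6 lowest symbol families. EM6, SAG21, HSP70, HSP90.1, NAC042, NAC083, ABR1, RAP2.4 and RAP2.6 were named after their values were seen. So were RBCS1A, RBCS2B, RBCS3B, AOC3, LOX4, JAZ2, JAZ6, JAZ10, NIA1, NIA2 and the genes listed at 0 in 1 group. The 368 named genes counted below are those chosen by rule. Alternatives were other filters, pseudocounts and scalings, a fit over all 12 libraries, a fit without trend and robust settings, a test against a 2-fold change, a replicate block, leaving out each library, and voom on recovered reads.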

Additional observations from a re-analysis of the deposited data

How the results depend on the processing

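The number of genes called was 9841, with 9921 in a fit over all 12 libraries, 9989 without a filter, 8702 at a mean of at least 5 TPM, 9768 at a pseudocount of 0.1, 9936 with median-of-ratios scaling, 10308 with quantile normalization, 9638 without trend and robust settings and 8009 to 10787 when each library was left out. No gene called in both changed direction under these, except 1 under quantile normalization. Leaving out a library gave 3772 to 5595 genes higher and 4223 to 5192 lower, and at 2-fold 1365 to 1784 higher and 634 to 851 lower. A test against a 2-fold change, by construction a stricter one, called 697 genes, 574 higher and 123 lower. Voom on recovered reads, chosen after seeing the data, called 7841 and shared 79.2% of the calls that could be compared. None of 368 named genes reversed in the fits over all 12 libraries, with the other pseudocount or scalings, with the block, without a library or by voom, and at most 20 lost their call under any 1 of these; the test against a 2-fold change called 191 of them no longer. Some list counts moved by over 1.5 times. By voom, genes lower went from 6 to 2 for Aux/IAA and GH3, 10 to 6 for immunity, 8 to 5 for chlorophyll synthesis, 2 to 0 for NAC factors and for aquaporins, and 1 to 0 for ABA breakdown, the SAUR19 group and other root markers, while genes higher went from 5 to 3 for low oxygen, 1 to 4 for glucosinolates and 2 to 1 for ethylene. Under quantile normalization genes lower went from 2 to 4 for proline, 3 to 5 for the stomatal lineage, 8 to 14 for mitochondria-encoded genes and 2 to 1 for aquaporins, and genes higher from 4 to 2 for cutin and 2 to 0 for ethylene. In the fit over all 12 libraries genes higher went from 8 to 5 for seed storage and 5 to 3 for low oxygen, with 8 other counts moved by 1 gene; median-of-ratios scaling moved 3 counts and a pseudocount of 0.1 moved 1, each by 1 gene. The cause was not tested. The difference in mean guard cell marker level of -0.0454 (log2) ranged from -0.0876 without DMSO replicate 2 to 0.0295 without DMSO replicate 3; the cause was not tested. Deviations from the group means had correlations of 0.33, 0.27 and 0.02 between libraries of equal replicate number in the 2 groups. Between unequal numbers they were -0.32 to 0.16. The main fit took no pairing, and whether equal numbers share a batch was not tested. A fit with the replicate number as a block called 10305 genes, 5101 higher and 5204 lower. Its median 95% interval reached 0.241 to either side, against 0.257 in the main fit. It moved 12 list counts by over 1.5 times, by up to 4 genes. Genes near 1 TPM rest on few reads, which limits small changes there.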

Other observations

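Genes that share a symbol were grouped without regard to function, and the families of at least 10 measured genes with the highest and lowest medians added groups beside those described above. Among the IRX genes, which make the xylan and cellulose of secondary walls, 9 of 10 rose and none fell, with a median of 0.99 (IRX1 1.45 ± 0.14, IRX15 1.380 ± 0.24). Laccases, oxidases that polymerise lignin and flavonoids, had 9 higher and 1 lower of 13 (median 0.81). LAC5 had 4.07, 1.21 and 1.96 TPM in DMSO and 57.8, 43.6 and 46.0 TPM with 3'-butyl ABA (3.95 ± 0.30), and LAC12 rose by 2.6 ± 0.22. Of 24 tau-class glutathione transferases (GSTU) 9 rose and 1 fell (median 0.56), and of 13 ABCC transporters, which move conjugates into the vacuole, 7 rose and none fell (median 0.57). At the other end, 9 of 15 SAUR genes fell and none rose (median -0.76), led by SAUR15 at -1.76 ± 0.13. The cytokinin response factors (CRF) had 7 lower and 2 higher of 11 (median -0.66), with CRF5 at -1.36 ± 0.10. Of 10 genes with JAZ symbols 3 fell and 3 rose (median -0.66), with JAZ4 the lowest at -1.82. The symbols TIM and TOM are used for mitochondrial import subunits, but other proteins can share these letters. Of 12 genes with TIM symbols 9 fell and none rose (median -0.64). Of 13 with TOM symbols 8 fell and 2 rose (median -0.57). These families were ranked on the values given here, so their medians are descriptions only.

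A further set of genes was listed at 0 in all libraries of one group, which gives no fold. Those named here were chosen after their values were seen. In the 3 DMSO libraries 13 measured genes were at 0. RALFL32, of the RALF peptide family, had 35.8, 23.4 and 26.3 TPM with 3'-butyl ABA, and BFT, of the family of the flowering signal FT, had 7.99, 7.06 and 5.02 TPM. SMP1 (AT3G12960), a seed maturation protein, had 3.57, 4.07 and 4.81 TPM, and MYB121 3.29, 2.5 and 1.23 TPM. In the 3 treated libraries 14 measured genes were at 0, among them DIR5, a dirigent-like protein with 3.50, 1.74 and 6.60 TPM in DMSO, and GH9B15, a glycosyl hydrolase with 1.08, 3.79 and 2.54 TPM. AT3G02790, a zinc finger gene, had 0, 24.7 and 0 TPM in DMSO and so rested on a single library.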
